A study of Mus musculus with 6 samples.

Results

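Desaturases and elongases are the membrane enzymes that give a fatty acid its double bonds and its final length. The 9 genes described here were taken by name: Scd1, Scd2, Fads1, Fads2, Elovl1, Elovl2, Elovl3, Elovl5 and Elovl6. All probe sets that the platform annotation assigned to exactly 1 of these symbols were used, which gave 21 of the 45101 probe sets in the table, for 9 of the 18194 genes so named. Of these 21, 18 passed a filter on dim signals (a mean log2 signal no lower than the table's median) and were tested, and 3 did not. Signals came from 6 liver arrays of C57BL/6 mice, which were 8 weeks old when they went on a diet for 6 weeks. The 3 chow arrays are from mice on Labdiet 5008, a standard grain-based feed, and the 3 ketogenic arrays from mice on Bio-Serv F3666, a feed that is nearly all fat with little carbohydrate. Livers were taken in the morning from freely fed animals, so neither group was fasted. The series text gives 2 to 3 animals per group and does not say whether an array held 1 animal or a pool, and the p-values therefore reflect the spread among 3 arrays a diet, which may be technical.

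Stearoyl-CoA desaturases such as Scd1 place a double bond at the delta-9 position of a saturated acyl chain and so make monounsaturated fatty acids from the products of fatty acid synthase. Fads1 and Fads2, the delta-5 and delta-6 desaturases, act by turns with the elongases Elovl5 and Elovl2 to turn the essential plant fatty acids of the diet into long polyunsaturated ones. Elovl1, Elovl3 and Elovl6 extend saturated and monounsaturated chains. In liver, transcription of this set is known to respond to insulin, carbohydrate and polyunsaturated fat, with the factor SREBP-1c among its regulators.

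On the ketogenic diet Scd1 fell 65.1-fold and Elovl3, an elongase of long saturated and monounsaturated chains, fell 3.31-fold (n = 3 arrays per diet, limma). Scd2, another stearoyl-CoA desaturase, rose 2.43-fold on its brightest probe set. No probe set of Fads1, Fads2, Elovl1, Elovl2, Elovl5 or Elovl6 passed the threshold of 0.05 on the adjusted p. Of the 18 tested probe sets, 4 were called, while 4.64% of all 22515 probe sets tested were called. Of these 4, 3 were lower, while 0.564% of all probe sets were called lower. These 3 are the 2 probe sets of Scd1 and the 1 of Elovl3, so they are not independent. 1 was higher, beside 4.08% of all probe sets. The median log2 change of these 18 was 0.26 and that of all probe sets tested 0.22.

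Overall signal differed between arrays, which bears on every modest difference below. The 2% trimmed mean signal lay between 39.6 and 53.1 on chow and between 45.6 and 60.7 on ketogenic arrays. Spiked hybridization controls, by geometric mean, lay higher on chow arrays (633.2 to 650.3) than on ketogenic arrays (478.3 to 511.2). The 3' to 5' signal ratio of actin was 2.00 to 2.20 on chow and 1.49 to 1.63 on ketogenic arrays. That of Gapdh overlapped between the diets, at 0.76 to 0.97 on chow and 0.77 to 0.81 on ketogenic arrays. As deposited, 918 probe sets were called higher and 127 lower. With a common array median this split was 1068 and 312, with quantile normalization 646 and 355, with a common trimmed mean 780 and 403, and with hybridization control scaling 4995 and 128. These 4 scalings moved the median change of all probe sets by -0.11, -0.23, -0.21 and 0.36 on the log2 scale. The liver label was checked on hepatocyte markers: Alb, Apoa1, Ttr, Apob and Hnf4a were all above background in both diets, and limma called 0 of these 5 (0 also at an unadjusted p under 0.05). Their summed signal was 27979 to 28928 on chow and 25078 to 27936 on ketogenic arrays. It was thus lower on the ketogenic diet without overlap, though by a narrow gap.

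**Figure D1:**
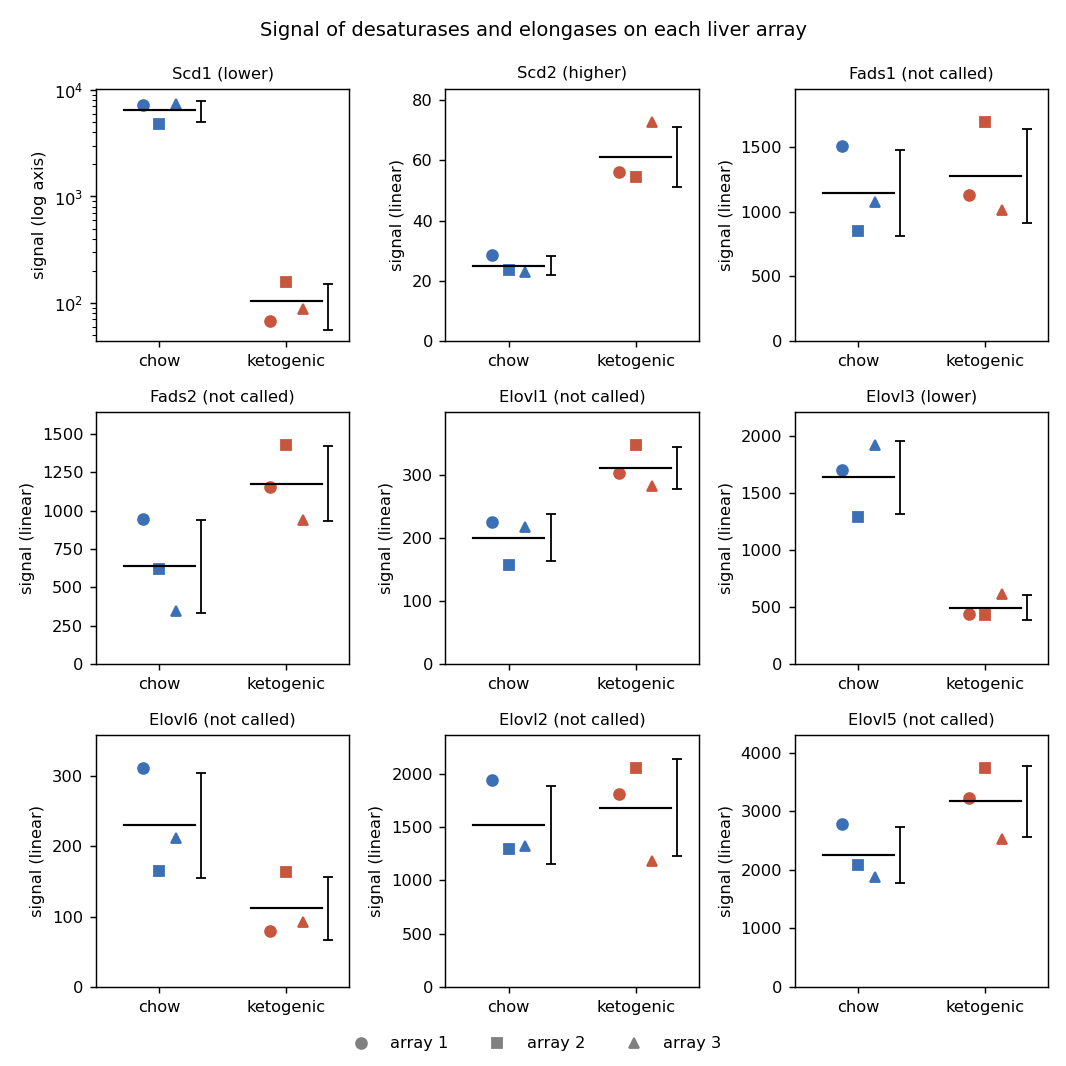
Signal of the brightest probe set of each gene on each array, with the mean (line) and SD (bar, n = 3) of each diet; the axis is linear from 0 except for Scd1, whose axis is logarithmic. Scd1 and Elovl3 lie lower and Scd2 higher on all 3 ketogenic arrays, and Fads1 and Elovl2 overlap between the diets.

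Scd1, the main stearoyl-CoA desaturase of mouse liver, had signals of 7240, 4747 and 7413 on chow arrays 1, 2 and 3 on its brighter probe set, 1415964_at. On ketogenic arrays 1, 2 and 3 the same probe set read 67.1, 158.3 and 87.0. The lowest chow array thus lay far above the highest ketogenic one. The change was -6.02 ± 0.36 (log2, SE), with a 95% interval from -6.85 to -5.19 and an adjusted p of 0.000383. On the second probe set, 1415965_at, the signals were 1861, 769.3 and 529.1 on chow and 7.7, 19.4 and 10.7 on ketogenic arrays. Here too the diets were far apart, with a change of -6.28 ± 0.50 (SE) and an adjusted p of 0.00132. Ketogenic arrays 1 and 3 were under the background of 10.8, taken from bacterial control probe sets, so the size is approximate there (-6.12 with signals raised to the background). Among the 22515 probe sets tested these were the second and the third largest falls, an order that holds for the values as deposited. On both probe sets ketogenic array 2 kept the most signal, and the ratio of the highest to the lowest ketogenic array was 2.36 on the brighter one. Both calls held under every alternative that gave a value, 19 for the brighter and 17 for the dimmer probe set.

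Scd2 makes the same product but is known mainly from brain, skin and the newborn liver, and it lies in the cluster of Scd genes on chromosome 19, where Scd4 stands between it and Scd1 in the RefSeq gene order. Its brightest probe set, 1415822_at, read 28.6, 23.5 and 23.1 on chow and 56.1, 54.6 and 72.8 on ketogenic arrays. All 3 ketogenic arrays were higher, and the diets did not overlap. The change was 1.28 ± 0.25 (log2, SE; adjusted p = 0.0268). This call was lost with quantile normalization (adjusted p = 0.0723), with a common trimmed mean (0.0591), with no filter (0.112) and with the mean of the tested probe sets of the gene (0.0956). It was also lost without chow array 2 (0.0772) or 3 (0.0613) and without ketogenic array 1 (0.0839), 2 (0.0653) or 3 (0.0854). Over its 18 alternatives the adjusted p ran from 0.00638 to 0.112, and the change stayed positive.

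The other 2 probe sets of Scd2 lay near or under the background. 1415823_at fell under the filter and was not tested: it read 3.0, 2.8 and 7.8 on chow, all under the background, and 23.8, 27.4 and 24.0 on ketogenic arrays. With chow signals raised to the background this is at least 2.33-fold higher, a bound that covers the background only and not the spread between arrays. With no filter the adjusted p was 0.0925. The third, 1415824_at, read 13.3, 11.5 and 8.1 on chow and 13.3, 14.2 and 11.4 on ketogenic arrays, which overlap (change 0.27 ± 0.28, adjusted p = 0.627). Its chow signals too had a mean log2 under the background. With chow signals raised to the background the change was 1.09-fold, a value that again leaves out the spread between arrays. The interval from limma, -0.36 to 0.89 (log2), allows a fall or a rise. This probe set therefore did not show the rise seen on the brightest one. At such dim signals the sizes of the changes cannot be compared.

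Markers of some other cell types were also higher on the ketogenic diet. Of 9 macrophage markers 7 were called higher, and the summed signal of the 9 was 915.4 to 1186 on chow and 3168 to 5092 on ketogenic arrays. Among the 7, Gpnmb (3.1, 4.6 and 2.8 on chow) passed the filter only through its ketogenic arrays. Of 5 tested stellate cell markers 2 were called higher, with summed signals, Des included, of 384.7 to 608 and 1402 to 2066. Of these 2, Col1a1 (16.6, 2.8 and 18.4 on chow) likewise passed the filter only through its ketogenic arrays. The pan-leukocyte gene Ptprc rose by 2.25 ± 0.27 (log2, SE). None of the 5 tested endothelial, 3 tested cholangiocyte and 1 tested adipocyte markers was called by limma, and at an unadjusted p under 0.05 these numbered 3, 0 and 0. Their summed signals were nevertheless higher without overlap for endothelial markers (404.6 to 677.7 on chow, 772.1 to 999.2 on ketogenic arrays) and cholangiocyte markers (46.8 to 70.8 and 86.5 to 104.7). A dim probe set of the epithelial gene Epcam was not tested under the filter and was named after its values were seen. It read 0.9, 0.6 and 0.7 on chow and 34.5, 21.7 and 56.1 on ketogenic arrays (adjusted p = 0.0356 with no filter). The brighter probe set of Epcam was tested and not called (change 1.05 ± 0.62, log2, SE; adjusted p = 0.387). Its signals were 29.8, 29.5 and 5.2 on chow and 32, 44 and 29 on ketogenic arrays, which overlap. The adipocyte hormones Adipoq and Lep were under the background in both diets. The part of these cells in the rise of Scd2 was not tested. In bulk liver, more cells of a type and more RNA per cell cannot be told apart.

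**Figure D2:**
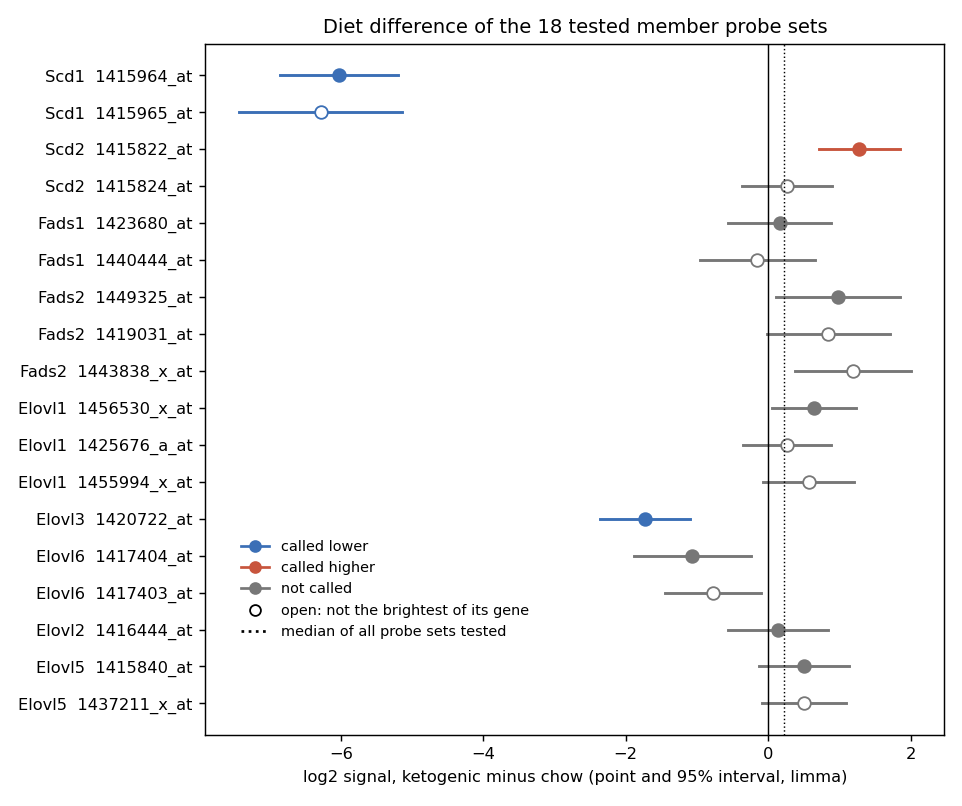
Log2 difference between ketogenic and chow arrays with its 95% interval from limma for the 18 tested probe sets; filled points mark the brightest probe set of each gene and the dotted line the median of all probe sets tested (0.22). The 2 Scd1 probe sets and Elovl3 lie to the left, and the intervals of Fads1, Elovl2 and Elovl5 include 0.

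Elovl3, which extends long saturated and monounsaturated chains and is represented by 1 probe set, had signals of 1701, 1287 and 1920 on chow and 434.0, 431.1 and 616.9 on ketogenic arrays. The diets did not overlap. The change was -1.73 ± 0.28 (log2, SE; adjusted p = 0.0137). It remained past the threshold under 17 of 19 alternatives and was lost without ketogenic array 1 (adjusted p = 0.0514) and with no filter (0.0866).

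Elovl6 extends palmitate and so supplies the preferred substrate of Scd1. Its brightest probe set, 1417404_at, read 311.5, 165.4 and 212.0 on chow and 79.2, 163.1 and 92.4 on ketogenic arrays. The diets were separated only by the narrow gap between chow array 2 and ketogenic array 2. The change was -1.06 ± 0.36 (log2, SE; 95% interval -1.88 to -0.25) and was not called (adjusted p = 0.143). It was called with log2 of signal plus 16 (adjusted p = 0.0202), with a stricter filter (0.0194) and with limma's trended robust prior (0.0414). Over 19 alternatives its adjusted p reached 0.384. The second probe set, 1417403_at, gave -0.78 ± 0.30 (adjusted p = 0.187), with no overlap of the diets. With hybridization control scaling the diets overlapped on both. The third, 1442656_at, was not tested. It read 24.2, 11.7 and 2.4 on chow and 2.2, 12 and 13.9 on ketogenic arrays, with both diets' mean log2 signals under the background.

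Elovl1, the elongase of very long saturated and monounsaturated chains found in most tissues, had 4 probe sets. The brightest, 1456530_x_at, read 225.4, 157.3 and 217.5 on chow and 302.5, 347.6 and 281.6 on ketogenic arrays, with no overlap. Its change of 0.65 ± 0.26 (log2, SE) was not called (adjusted p = 0.209), except with hybridization control scaling (0.0263). The probe sets 1455994_x_at and 1425676_a_at, gave 0.57 ± 0.28 and 0.26 ± 0.27, with overlap on the latter; the first of these passed only with hybridization control scaling (adjusted p = 0.0442). The fourth, 1443820_x_at, was not tested and lay between 1.5 and 13.7 on all 6 arrays. The ending x marks a probe set that can bind several transcripts.

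Fads2, the delta-6 desaturase that takes the first step of polyunsaturated fatty acid synthesis, read 943.9, 619.7 and 343.4 on chow and 1156, 1428 and 940.8 on ketogenic arrays on its brightest probe set, 1449325_at. Only chow array 1 and ketogenic array 3 overlapped, by a small margin. The change was 0.98 ± 0.38 (log2, SE; 95% interval 0.11 to 1.86; adjusted p = 0.199). The probe sets 1443838_x_at and 1419031_at gave 1.19 ± 0.36 (adjusted p = 0.104) and 0.84 ± 0.38 (adjusted p = 0.26). The first of these 2 passed the threshold under 5 of its 16 alternatives. The brightest passed with log2 of signal plus 16 (0.0317), with a stricter filter (0.0385) and with hybridization control scaling (0.0391), and 1419031_at only with the last of these (0.0491). None of the 3 probe sets turned negative in any alternative. The spread within chow was wide: the highest chow array was 2.75 times the lowest on 1449325_at.

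Fads1, the delta-5 desaturase, is the neighbour of Fads2 in the RefSeq gene order of chromosome 19, yet its values did not separate by diet. The brighter probe set, 1423680_at, read 1509, 849.0 and 1077 on chow and 1127, 1694 and 1011 on ketogenic arrays. These ranges lie almost on top of each other. The change was 0.16 ± 0.32 (log2, SE), and its 95% interval from -0.56 to 0.89 does not exclude a moderate change either way. The dimmer probe set, 1440444_at, gave -0.15 ± 0.36 (adjusted p = 0.842). The sign of each was opposite under 3 alternatives.

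Elovl5 and Elovl2 extend polyunsaturated chains, Elovl2 acting on the longer ones on the way to docosahexaenoic acid. Elovl5 read 2786, 2075 and 1876 on chow and 3227, 3744 and 2535 on ketogenic arrays on 1415840_at. Ketogenic array 3 lay under chow array 1, so the diets overlapped. The change was 0.50 ± 0.28 (log2, SE; adjusted p = 0.356), and the second probe set, 1437211_x_at, gave 0.50 ± 0.26 (adjusted p = 0.326) with no overlap. Both were called only with hybridization control scaling (adjusted p = 0.0459 and 0.0386). Elovl2, with 1 probe set, read 1945, 1294 and 1327 on chow and 1813, 2057 and 1180 on ketogenic arrays. Its highest and its lowest array were both ketogenic, and the change was 0.13 ± 0.31 (adjusted p = 0.841; 95% interval -0.57 to 0.83).

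Much of the spread within a diet was shared between genes. Chow array 1 was the highest chow array for 16 of the 18 tested probe sets, and ketogenic array 2 the highest ketogenic array for 16 of 18, and these are also the arrays with the highest trimmed mean in their diet. Dividing each signal by its array's trimmed mean narrowed some genes and not others. The coefficient of variation of Elovl5 (SD over mean) went from 21.3% to 7.74% on chow and from 19.1% to 5.17% on ketogenic arrays. Its relative signal was then 48.3 ± 3.74 on chow and 58.8 ± 3.04 on ketogenic arrays (SD, n = 3), without overlap. For Fads2 the relative signal was 13.3 ± 4.55 and 21.8 ± 1.54 (SD, n = 3), also without overlap. Scd1 went the other way on chow, where its coefficient of variation was 23.1% as deposited and 29.7% after division.

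On this relative scale 6 of 18 tested probe sets were higher and 5 lower with no overlap between the diets, beside 17.2% and 14.6% of all probe sets. As deposited these counts were 5 and 5, beside 21.6% and 5.06% of all probe sets, or 10 of 18 in either direction beside 26.7%. With the common trimmed mean the adjusted p of Elovl5 was 0.295 and that of Fads2 0.157. Elovl6 came nearer to the threshold, with a change of -1.28 ± 0.30 (log2, SE) and an adjusted p of 0.0622.

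**Figure D3:**
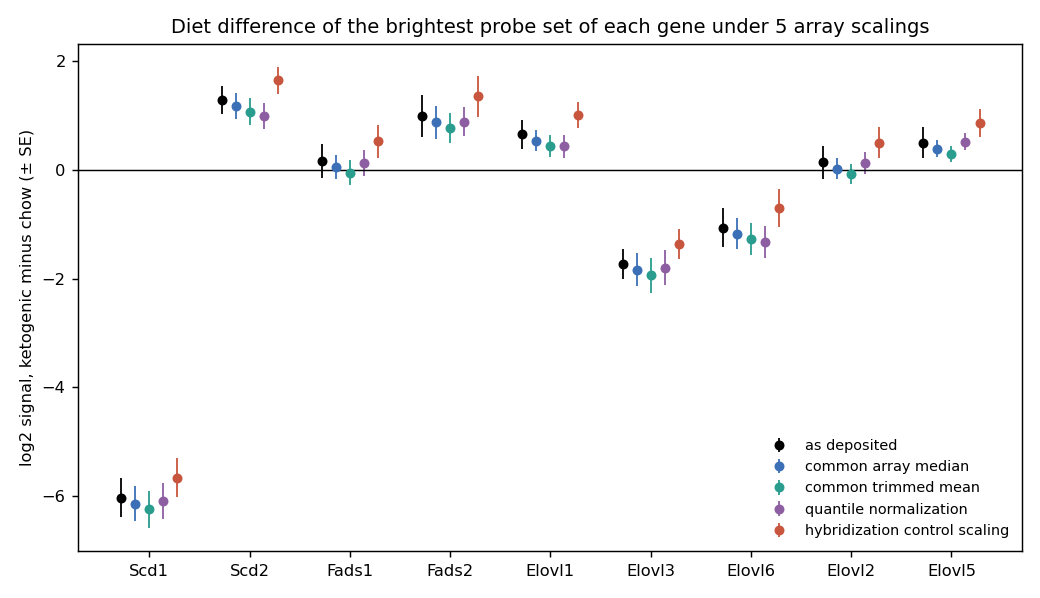
Log2 difference between diets (± SE) of the brightest probe set of each gene under the deposited level and 4 other scalings of the arrays. Scd1, Elovl3 and Elovl6 stay below 0 and Scd2, Fads2, Elovl1 and Elovl5 above 0 under all 5, while Fads1 and Elovl2 are slightly negative with a common trimmed mean (-0.053 and -0.082).

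Ratios of 2 probe sets on the same array do not depend on the level of that array, so 7 of them were compared between the diets. Only the difference between diets can be read, since signals of different probe sets are not on 1 scale. With 3 against 3 arrays a two-sided exact permutation test cannot give a p under 0.1. In 6 of the 7 ratios that value was reached (0.117 after Benjamini-Hochberg adjustment over the 7), which means only that the diets did not overlap. The share of other probe set pairs that separate in this way was not computed, so the count is a description. The ratios of Scd1 to Scd2, Elovl6 and Fasn all carry the fall of Scd1. The log2 ratio of Scd1 to Scd2 was 7.98, 7.66 and 8.33 on chow and 0.26, 1.54 and 0.26 on ketogenic arrays, a difference of -7.31. The ratio of Scd1 to Elovl6 differed by -4.96, and ran from -0.24 to -0.04 over the ketogenic arrays. On each of the 3 ketogenic arrays Scd1 was thus lower relative to Elovl6 than on any chow array.

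The ratio of Scd1 to Fasn, which encodes the fatty acid synthase that supplies its substrate chain, was the tightest of all on chow. Its log2 values there were 3.37, 3.35 and 3.29, a span of 1.06-fold, although Scd1 itself spanned 1.56-fold. On ketogenic arrays the ratio was -1.71, -1.35 and -1.68, a difference of -4.92 between the diets. Fasn itself read 699.5, 465.6 and 760.2 on chow and 218.9, 404.4 and 279.0 on ketogenic arrays. Its change of -1.11 ± 0.32 (log2, SE) was not called at the level of probe sets (adjusted p = 0.0955), though the diets did not overlap. It was called with the floor at the background (0.0375), with log2 of signal plus 16 (0.00675), with a stricter filter (0.0096) and with limma's trended robust prior (0.013).

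Among the elongases, the log2 ratio of Elovl6 to Elovl5 was -3.16, -3.65 and -3.15 on chow and -5.35, -4.52 and -4.78 on ketogenic arrays, a difference of -1.56. The ratio of Elovl5 to Elovl2 was 0.57 ± 0.10 on chow and 0.93 ± 0.15 on ketogenic arrays (SD, n = 3), again without overlap and with exact p = 0.1. For the neighbouring desaturases, the ratio of Fads1 to Fads2 was 0.68, 0.45 and 1.65 on chow and -0.04, 0.25 and 0.10 on ketogenic arrays, a difference of -0.82. Its chow values are wide, and the gap between the diets is narrow. The ratio of Elovl3 to Elovl6 overlapped between the diets, with a difference of -0.66 and exact p = 0.3. No ratio changed the sign of its difference when any 1 array was left out or with quantile normalization.

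**Figure D4:**
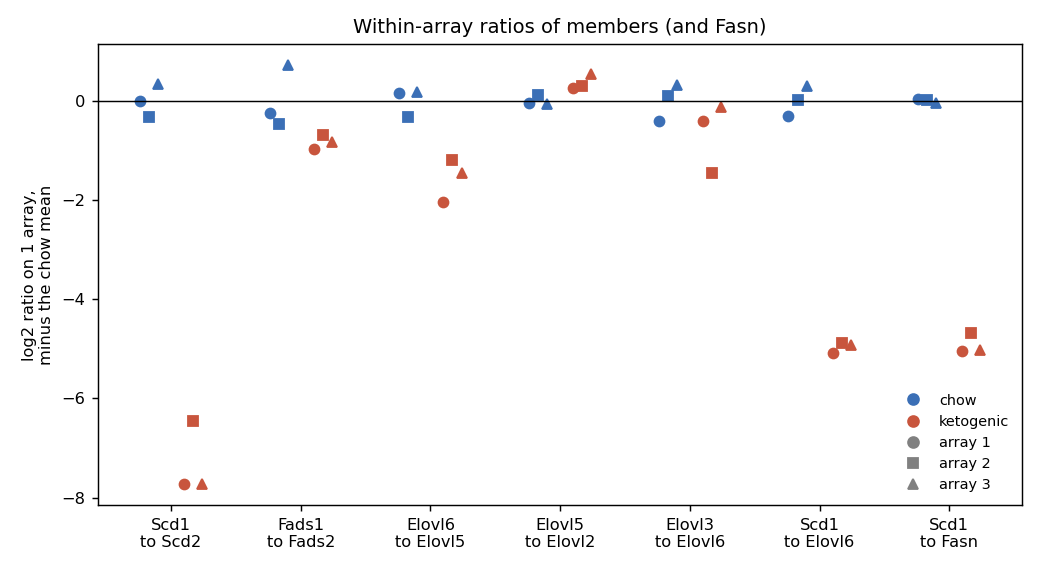
Log2 ratio of 2 probe sets on each array, shown relative to the mean of the chow arrays; each point is 1 array. The ratios of Scd1 to Scd2, Elovl6 and Fasn differ by -7.31, -4.96 and -4.92 between the diets, and the ratio of Elovl3 to Elovl6 overlaps.

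RefSeq promoters (GRCm38.p6, 250 bases before to 50 after the gene start) were matched for 5 of the 9 genes, in 7 sequences. Those of Elovl6, Elovl5 and Fads2 are shown because the ratio of Elovl6 to Elovl5 separated the diets on every array and Fads2 was the uncalled desaturase with the larger change. Capitals mark each CCAAT, the box bound by the factor NF-Y, read on either strand, so that ATTGG is the same box on the other strand.
Elovl6, chr3:129532136-129532435, plus strand: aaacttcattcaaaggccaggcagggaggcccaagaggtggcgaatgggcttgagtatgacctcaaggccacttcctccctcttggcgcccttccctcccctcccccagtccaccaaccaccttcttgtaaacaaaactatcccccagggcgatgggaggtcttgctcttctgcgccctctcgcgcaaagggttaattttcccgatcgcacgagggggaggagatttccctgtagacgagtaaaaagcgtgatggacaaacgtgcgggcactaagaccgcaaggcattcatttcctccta
Elovl5, chr9:77917115-77917414, plus strand: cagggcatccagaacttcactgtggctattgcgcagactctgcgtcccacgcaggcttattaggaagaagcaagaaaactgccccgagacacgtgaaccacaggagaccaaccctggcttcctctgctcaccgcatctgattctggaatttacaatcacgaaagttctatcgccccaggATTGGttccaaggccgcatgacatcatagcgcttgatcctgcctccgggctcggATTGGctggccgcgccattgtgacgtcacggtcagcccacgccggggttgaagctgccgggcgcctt
Fads2, chr19:10101454-10101753, minus strand: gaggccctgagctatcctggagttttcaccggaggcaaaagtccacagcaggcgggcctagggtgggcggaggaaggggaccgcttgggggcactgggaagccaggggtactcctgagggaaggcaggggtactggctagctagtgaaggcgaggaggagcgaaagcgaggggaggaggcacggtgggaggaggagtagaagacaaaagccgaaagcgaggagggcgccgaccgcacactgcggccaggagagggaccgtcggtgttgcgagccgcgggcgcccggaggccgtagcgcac

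The Elovl5 promoter held 2 such boxes, 71 and 17 bases before the gene start, and the other 2 shown held none. Of the 7 sequences 2 held a CCAAT box, 1 of Elovl5 and 1 of Elovl1. Over all 32851 promoter sequences of that length, 37.4% held at least 1. A core of the sterol response element, TCACNCCAC, was searched on both strands and was found in 0 of the 7 sequences and in 1.24% of all promoters. These are matches of letters in a short window. Scd1, Scd2, Fads1 and Elovl3 are not included in this search.

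Genes that work with these enzymes were taken from lists of the pathway. Of the 4 tested genes among other desaturases and elongases, limma called 0 on the brightest probe set, with a median change of 0.88. At an unadjusted p under 0.05 there was 1, the elongase Elovl7 (1.80 ± 0.61, log2, SE, adjusted p = 0.144), without overlap. A dim probe set of Elovl7 was under the filter, not tested, and named after its values were seen. It read 1.2, 0.3 and 1.2 on chow and 18.1, 28.6 and 13.3 on ketogenic arrays (adjusted p = 0.0356 with no filter). The other untested probe sets of Elovl7 overlapped between the diets. The stearoyl-CoA desaturase Scd3 was not tested, since both of its probe sets had mean log2 signals under the background in both diets, with single arrays from 0.8 to 17.1. The brightest, Degs1, a desaturase of sphingolipid synthesis, had a change of 0.24 ± 0.24 (log2, SE). A dimmer probe set of Fads3 was called, with a mean of 5.63 ± 3.20 on chow, under the background, and 25.1 ± 10.1 on ketogenic arrays (SD, n = 3; adjusted p = 0.0345). It passed the filter only through the ketogenic arrays, and the call was lost with no filter (0.185). It was named after its values were seen. The other probe set of Fads3 tested gave 1.51 ± 0.78 (log2, SE; adjusted p = 0.325).

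Of the 6 other enzymes of the elongation cycle, 1 was higher and 0 lower. It was Hacd4, a dehydratase of the cycle, which read 15.1, 7.0 and 8.6 on chow and 51.6, 75.7 and 40.6 on ketogenic arrays (change 2.48 ± 0.36, log2, SE; adjusted p = 0.0102). With chow signals raised to the background it was at least 4.49-fold higher, and the call was lost with no filter (0.086). It too passed the filter through its ketogenic arrays. The reductase Tecr, the dehydratases Hacd1, Hacd2 and Hacd3 and the ketoacyl reductase Hsd17b12 changed by -0.15 to 0.52 and were not called. Of 5 tested genes that carry electrons to the desaturases, 1 was higher: Cyb5r1, a cytochrome b5 reductase, by 1.21 ± 0.25 (log2, SE; adjusted p = 0.0319). No set of 5 arrays kept that call (adjusted p from 0.0563 to 0.104), nor did quantile normalization (0.0604) or no filter (0.122). Cyb5a, which encodes the electron carrier itself, had a change of -0.20 ± 0.25. The brighter cytochrome b5 reductase gene Cyb5r3 went the other way and was not called (-0.62 ± 0.29, adjusted p = 0.288). Of the 5 changes 2 were positive, with a median of -0.05.

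Of 9 tested genes of substrate supply, limma called 0 (2 were lower at an unadjusted p under 0.05). On the brightest probe sets 8 of the 9 changes were negative, with a median of -0.39, beside 7172 of all 22515 probe sets tested. That of Acaca was near none (-0.02), and the dimmer probe sets of these genes went both ways. The brightest, the acyl-CoA synthetase Acsl5, had a change of -0.01. Of 13 tested regulators, 1 was lower and 1 higher (3 lower and 3 higher at an unadjusted p under 0.05). Srebf1, which encodes SREBP-1c, had a change of -0.42 ± 0.34 (log2, SE) and was not called (adjusted p = 0.537). Thrsp, a regulator of lipogenesis, read 980.7, 730.1 and 1400 on chow and 56.4, 292.4 and 49.5 on ketogenic arrays (change -3.42 ± 0.63, log2, SE; adjusted p = 0.0218). Like Scd1 it was highest among ketogenic arrays on array 2, and its call was lost without chow array 3 (0.0569) or ketogenic array 3 (0.0857), with no filter (0.148) and with limma's trended robust prior (0.064). Pparg, the adipogenic nuclear receptor, was higher by 1.40 ± 0.33 (adjusted p = 0.0495), a call lost without chow array 2 (0.127) or 3 (0.115) and without ketogenic array 1 (0.115), 2 (0.138) or 3 (0.115), with quantile normalization (0.0551), with no filter (0.195) and without probe sets ending in x or s (0.0504). Of 5 tested phospholipid acyltransferases, Lpcat1 was higher by 1.29 ± 0.29 (adjusted p = 0.0408), a call lost without any 1 array other than chow array 1 (adjusted p between 0.0967 and 0.122), with quantile normalization (0.0627) and with no filter (0.16). Its other tested probe set gave 0.90 ± 0.35 (adjusted p = 0.195). Lpcat3, which places polyunsaturated chains in phospholipids, was not called (0.23 ± 0.29).

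**Figure D5:**
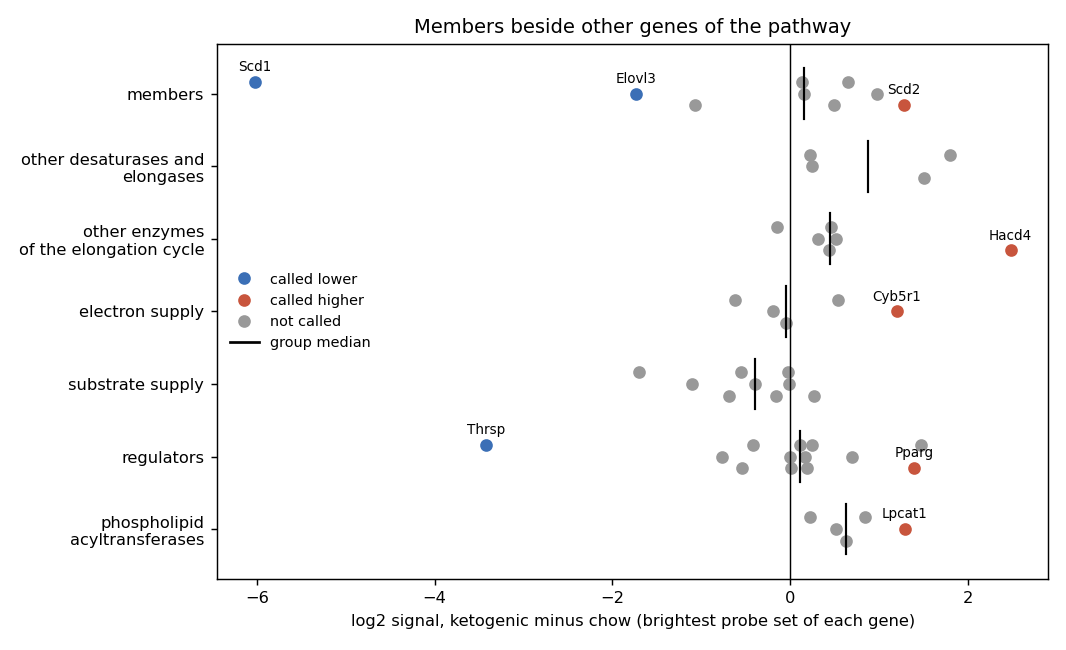
Log2 difference between diets of the brightest probe set of each tested gene, by group, with the group median as a bar and the names of called genes. Scd1 (-6.02) and Thrsp (-3.42) are the 2 lowest points, and the substrate supply genes have a median of -0.39.

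Genes with the most similar pattern were found by Euclidean distance between mean-centred log2 signals over the 6 arrays, each gene by its brightest probe set. Nearest to Scd1 were Nnmt (distance 2.19), Thrsp (3.43), Hsd3b5 (3.58), Ces2a (3.89) and Ugt2b38 (4.16). These distances are large because few genes fell as far. Nearest to Elovl3 were Adcy5 (0.49), Cyp2c70 (0.58), C9 (0.68), Tyrp1 (0.76) and Selenbp1 (0.77). Nearest to Scd2 were Tcf21 (0.17), Ubash3b (0.20), Plin3 (0.23), Dcn (0.27) and Clic1 (0.29). The measure uses the diet difference itself, so it describes likeness and tests nothing.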

How the data were processed

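Total RNA of mouse liver was hybridised to 6 Affymetrix arrays, 3 per diet. The authors deposited a linear signal intensity for each probe set, and the submitters' processing notes name GCOS and MAS5, with neither version nor scaling given in the sources used here. Array levels were kept as deposited. Signals were raised to the 10th percentile of the table (1.1) and taken to log2. The filter left out 64 control probe sets and those whose mean log2 signal was under the median (3.35), leaving 22515. Diets were compared per probe set by limma's linear model and moderated test (version 3.58.1, R 4.3.3), two-sided and adjusted over all 22515 by Benjamini-Hochberg, and the fit was tested on simulated data. Ratios were tested in scipy 1.17.1. For background, 27 control probe sets of bacterial genes were used: their 95th percentile on each array, averaged as log2. The brightest probe set of a gene is that with the highest mean log2 signal. Array number limits the precision. Replicates were numbered in deposition order and pair nothing.

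Members and lists were chosen with earlier results of these data known. Named genes were all members, list genes past the threshold (or the brightest where none was) and the 5 nearest by pattern to each called member. Some uncalled list genes, such as Fasn and Srebf1, were named as well. Acsl1, Scd4 and Nr1h2 and the markers Tf, Serpina1a, Plin1, Cfd and Ly6g are not analysed here. Cd3e, Krt7 and Des were under the filter. Alternatives covered scaling, floor, filter, prior, probe set choice and each array left out.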

Additional observations from a re-analysis of the deposited data

How the results depend on the processing

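The count of 3 lower member probe sets stayed between 2 and 4 over 19 alternatives. The count of 1 higher was 0 with quantile normalization, with a common trimmed mean, with no filter and with the mean of the probe sets of a gene, 2 with a stricter filter and with a trended robust prior, 3 with the floor at the background, 4 with log2 of signal plus 16, 8 with hybridization control scaling, and 0 to 2 with any 1 array left out. Of all probe sets, 1045 changed as deposited, 178 with no filter, 1872 with a trended robust prior, 1942 with the floor at the background, 2269 with log2 of signal plus 16, 5123 with hybridization control scaling, and 310 to 1037 with any 1 array left out. Reversed signs, all of uncalled values, were seen for 3 probe sets. With a common trimmed mean Elovl2 gave -0.082 and Fads1 1423680_at -0.053, and with hybridization control scaling Fads1 1440444_at gave 0.21. With any 1 array left out, Elovl2 ran from -0.031 to 0.37, Fads1 1423680_at from -0.061 to 0.38 and Fads1 1440444_at from -0.46 to 0.085. The cause of these changes was not tested. Some alternatives also differ in the number of arrays or of probe sets tested. Dim signals near the background of 10.8 limit Scd2. No paired analysis was possible because replicate numbers were given in deposition order and pair no samples.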

Other observations

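The 2 probe sets of Scd1 ordered the chow arrays differently. Chow array 3 had the highest signal on 1415964_at (7413) and the lowest on 1415965_at (529.1), and the span over the chow arrays was 1.56-fold on the first and 3.52-fold on the second. On ketogenic arrays both gave the same order. Chow array 3 also had the lowest Fads2 signal (343.4) and the highest Elovl3 signal (1920) of the chow arrays.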
